A study of Caenorhabditis elegans with 2 samples.

Results

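Candidate BLMP-1 regions next to microRNA genes are the lines of the pooled candidate list, on nuclear chromosomes, whose summit lay within 2000 bp of an annotated microRNA gene. The genes lin-4 and let-7 were left out, which kept 259 of the 261 annotated microRNA genes. In all, 352 of the 30000 pooled candidates met this rule, at 184 separate loci, and no filter on low values was applied to them. Of the 30000, 29974 are nuclear and serve as the comparison. The rule read positions alone and no signal. The data come from ChIP-seq of eGFP-tagged BLMP-1, a zinc finger transcription factor, in whole C. elegans embryos of mixed stage and pooled sex. There was 1 group with 2 biological replicates, both of strain OP109, unc-119(ed3) III with the transgene wgIs109, an insertion for blmp-1 per the labels. All libraries thus share the unc-119 mutation and the transgene, no second condition was measured, and the promoter that drives the transgene is not given in the sources used here. Fragments were 150 to 350 bp long per the labels.

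MicroRNAs are short RNAs that are cut from hairpin precursors and guide Argonaute proteins to messenger RNAs. The target is read mostly through the seed, bases 2 to 8 of the mature RNA, so genes with the same seed form a family that can act on the same messages. In C. elegans several families act in the embryo, others time the larval stages, and BLMP-1 itself, the relative of vertebrate PRDM1, is known for roles in the epidermis and in developmental timing. The annotation gives the hairpin for nearly all of these genes, with a median length of 95 bp. The start of the primary transcript, which can lie far upstream, was not used here.

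The sequences at the summits of 5 of the strongest regions are shown first, those of the mir-51, mir-44 and mir-58 families and of mir-265. Each window reaches 50 bp to either side of the summit and is written on the plus strand of build ce11. At mir-52 the capitals mark the mature microRNA itself, which the summit falls in. At mir-45 and mir-82 they mark GAGAGA or its reverse complement, and at mir-265 the BLMP-1 core word AAGTGAAA. The window upstream of mir-54 has neither word.
mir-54 to mir-56, chrX:13146476-13146576: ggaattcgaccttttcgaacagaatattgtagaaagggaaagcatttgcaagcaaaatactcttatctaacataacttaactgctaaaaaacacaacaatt
mir-52, chrIV:14033982-14034082: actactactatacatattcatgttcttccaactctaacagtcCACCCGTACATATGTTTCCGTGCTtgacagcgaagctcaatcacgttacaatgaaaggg
mir-45, chrII:11881098-11881198: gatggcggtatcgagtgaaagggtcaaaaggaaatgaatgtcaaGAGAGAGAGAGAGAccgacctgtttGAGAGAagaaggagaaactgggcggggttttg
mir-82, chrX:2435478-2435578: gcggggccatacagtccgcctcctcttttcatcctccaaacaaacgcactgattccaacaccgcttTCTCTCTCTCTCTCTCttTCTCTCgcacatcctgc
mir-265, chrIV:12741692-12741792: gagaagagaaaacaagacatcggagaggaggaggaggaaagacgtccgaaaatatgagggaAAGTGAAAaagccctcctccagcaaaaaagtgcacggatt

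The mature RNAs of these families are given next, 5′ to 3′ with the seed in capitals, because family members with one seed stood at regions of very different strength. They were read from the ce11 genome at the annotated mature positions.
mir-51: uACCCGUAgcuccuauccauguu
mir-52: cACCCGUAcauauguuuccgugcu
mir-53: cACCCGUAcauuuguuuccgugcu
mir-54: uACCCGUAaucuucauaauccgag
mir-55: uACCCGUAuaaguuucugcugag
mir-56: uACCCGUAauguuuccgcugag
mir-44: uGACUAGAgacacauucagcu
mir-45: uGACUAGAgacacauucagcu
mir-80: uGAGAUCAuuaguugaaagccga
mir-81: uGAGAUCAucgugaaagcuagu
mir-82: uGAGAUCAucgugaaagccagu
mir-48: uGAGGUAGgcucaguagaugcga
mir-265: uGAGGGAGgaagggugguau

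As a group, regions near microRNA genes were about as strong as nuclear candidates in general in the pooled list. Their median pooled signal value, the authors' score per region, was 16.7 (quartiles 13.6 and 21.9), against 16.2 (13.4 and 20.8) over all nuclear candidates. The authors' IDR list, named for the irreproducible discovery rate, held 10 of the 352 regions, 2.84% (1.37 to 5.16, exact 95% binomial interval). The background was 2.73% of all nuclear candidates, so this share is no result about microRNA genes. Of the 818 nuclear peaks on the list, 785 (96.0%) had a candidate in both replicates, as did all 10 regions here. A place on the list is not by itself taken as agreement between the replicates. Regions chosen by the same distance to other small RNA genes stood on the IDR list at 38 of 753 (5.05%) near tRNA genes and at 34 of 644 (5.28%) near snoRNA and snRNA genes. These shares were not tested against each other, and the intervals cover counting error only. Library depth is unknown, since the lists carry no reads.

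**Figure D1:**
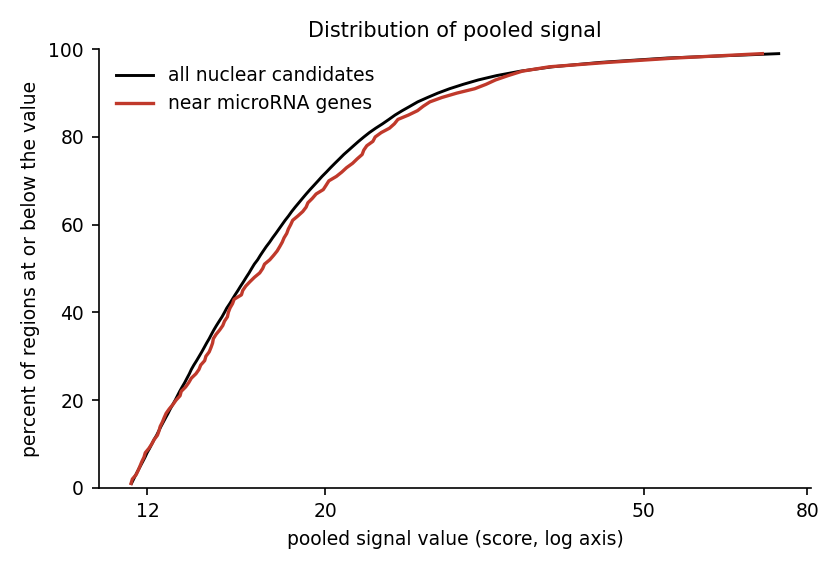
Percent of regions (vertical axis) at or below each pooled signal value (horizontal log axis) from the lowest to the highest percentile, for the 352 regions near microRNA genes and the 29974 nuclear candidates. The curves lie close together over their whole length, with medians of 16.7 and 16.2.

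By replicate, 5 of the 352 regions (1.42%, 0.463 to 3.28) overlapped a region among the 843 strongest of both replicates, a list as long as the IDR list. The background for that count was 1.51%. Replicate 1 had a candidate at 224 of the regions (63.6%, background 63.4%) and replicate 2 at 194 (55.1%, background 46.9%). Both had one at 108 (30.7%, background 26.2%), and neither had one at 42 (11.9%, background 15.9%). In replicate 2 the share was 56.3% near tRNA genes and 57.1% near snoRNA and snRNA genes. Spearman's rho between the replicates' signals was 0.267 across the 108 regions with a candidate in both. It was 0.366 across the 7855 nuclear candidates with a value in both. These are descriptions across regions of a single pair of samples, whose neighbouring regions are not independent.

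The region with the highest signal lay upstream of mir-235, the worm's relative of the vertebrate miR-92 genes, which keeps progenitor cells quiescent in starved larvae. Its pooled signal value was 123, rank 116 of the 30000 pooled candidates, with the summit at I 6164288, 1901 bp upstream of the hairpin and in no protein-coding promoter window (2000 bp upstream to 500 bp downstream of a gene start). In replicate 1 the overlapping candidate had signal 70.6 and rank 145, and in replicate 2 signal 59.9 and rank 78. Each replicate's own strongest region near a microRNA gene was this one. The nearest protein-coding start was that of T09B4.8, 2251 bp away.

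In the mir-51 family, which embryos need for normal development and for keeping the pharynx attached, 4 of 6 genes had an IDR summit within reach. Across all microRNA genes the figure was 13 of 259 (5.02%, 2.70 to 8.43). The 4 genes rest on 2 regions, since mir-54, mir-55 and mir-56 form a cluster that shares one. That shared region, summit X 13146526, lay 1432 bp upstream of mir-54 in an intron of F09A5.3, a gene on the opposite strand. Its pooled signal was 98.7 (rank 174), with 59.0 (rank 208) in replicate 1 and 47.7 (rank 135) in replicate 2. The annotation also places mir-55b, a hairpin on the other strand over mir-55, within reach of it.

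At mir-52 the summit at IV 14034032 fell inside the hairpin, which runs from 14034008 to 14034107. The pooled signal there was 95.9 (rank 186), and the overlapping candidates had 58.96 (rank 209) in replicate 1 and 36.2 (rank 229) in replicate 2. No protein-coding start lay near, the closest being that of Y37A1B.7 at 9748 bp. A weaker region stood 836 bp upstream of mir-52, with pooled signal 38.1 (rank 1250), rank 4293 in replicate 1 and rank 1275 in replicate 2, and 4 overlapping copies of GAGAGA at its summit.

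The other members of the family, mir-51 and mir-53, lie together on IV and had no IDR summit. Their strongest pooled region, 160 bp upstream of mir-53, had signal 26.6 (rank 3427), with ranks 5008 and 1143 in the replicates. Another region 52 bp downstream of mir-51 stood at rank 23334 in the pooled list (signal 13.2) but overlapped higher-ranked candidates in each replicate. These had rank 1885 in replicate 1 (signal 22.2) and rank 368 in replicate 2 (signal 29.9). Replicate ranks here come from an overlap of at least 1 bp. The replicate 2 candidate had its summit at IV 11026125, past the end of the pooled region at 11026118, so it may not mark the same summit. Only 26 nuclear candidates ranked within the first 2000 in both replicates and not in the pooled list while overlapping no pooled region that did, a comparison chosen after these values were seen. Besides the mir-51 region they include 1 near microRNA genes, 361 bp upstream of mir-54, with pooled rank 2314 and replicate ranks 1118 and 1197.

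The genes mir-44 and mir-45 encode the same mature RNA, shown above, from separate places on chromosome II. The region 109 bp upstream of mir-45, summit II 11881148, had pooled signal 77.5 (rank 281), with 41.7 (rank 439) in replicate 1 and 36.3 (rank 227) in replicate 2. Its summit lay on the GAGAGA repeat printed above, which holds 5 overlapping copies of the word, and a separate copy lay 19 bp from the summit. Near mir-44 the strongest region had pooled signal 24.4 (rank 4581), no candidate in replicate 1 and rank 558 in replicate 2. That region lay 1744 bp upstream of mir-44 and 1532 bp upstream of mir-42, in the mir-42 to mir-44 cluster. The other genes with this seed, mir-61 and mir-247, had strongest signals of 24.1 and 12.2.

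In the mir-58 family, abundant microRNAs related to fly bantam whose joint loss makes small worms, 1 of the 8 annotated genes listed here had an IDR summit. The list does not follow the seed throughout. It leaves out mir-58c, which has a seed of mir-82 and no IDR summit, and holds mir-58.1, whose 3p seed differs. The region 174 bp upstream of mir-82, in an intron of gid-2, had pooled signal 49.8 (rank 728), with 17.3 (rank 4400) in replicate 1 and 19.8 (rank 1070) in replicate 2. Neither replicate alone placed it among its 843 strongest regions. It holds 7 copies of GAGAGA on the minus strand, most of them overlapping in the run printed above. In the same host gene, a region 1413 bp downstream of mir-81 had signal 41.5 (rank 1047, ranks 1474 and 2680 in the replicates). The strongest region of mir-58.1 had signal 31.8, with replicate ranks 13629 and 7413. That of mir-80, 100 bp upstream of it, had signal 31.6, no candidate in replicate 1 and rank 3580 in replicate 2.

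Among 7 genes listed here as relatives of let-7, several of which time larval stages, 1 had an IDR summit within reach, mir-265. The region, summit IV 12741742, was 1214 bp upstream of the hairpin, with pooled signal 54.8 (rank 593), 26.1 (rank 1172) in replicate 1 and 26.2 (rank 502) in replicate 2. It also lay 204 bp upstream of the start of T23F6.5, the gene that hosts mir-265 on the same strand, so both the hairpin and its host have it within reach. The seed of mir-265 is not that of mir-48, as the printed sequences show. The listed genes with the seed of mir-48, namely mir-48, mir-84, mir-241 and mir-795, had no IDR summit. For mir-48 and mir-241, which act with mir-84 in the second larval stage, the strongest region was 942 bp upstream of mir-48 and 737 bp downstream of mir-241, with signal 22.3 (rank 6028) and replicate ranks of 8709 and 20787. No candidate lay within reach of mir-84.

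The other IDR regions lay at mir-354, mir-244, mir-8188 and mir-5549. At mir-354, which lies within rps-20, the summit I 14469257 was 766 bp upstream of the hairpin and 154 bp upstream of rps-20, a ribosomal protein gene (signal 63.3, rank 456, replicate ranks 418 and 841). The region at mir-8188 was 1580 bp upstream of it and 537 bp upstream of T27D12.1 (signal 55.4, rank 579, replicate ranks 444 and 2562). At mir-5549 the summit fell inside the hairpin and 205 bp upstream of rfc-4, a replication factor gene, with the start of eef-1A.1, a translation factor gene, also in reach (signal 51.7, rank 677, replicate ranks 1314 and 2749). These loci without mir-244, together with mir-265, are the 4 of 10 IDR regions inside a promoter window, and at all of them but mir-5549 the protein-coding start was closer to the summit than the hairpin. The remaining 6, at mir-235, mir-54, mir-52, mir-45, mir-244 and mir-82, lay in no such window.

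The region at mir-244 differed most between replicates among the IDR regions. Its summit, I 4684572, was 158 bp upstream of the hairpin, with pooled signal 59.98 (rank 501). Replicate 1 gave it signal 61.04 and rank 191, while replicate 2 gave it 7.14 and rank 16345. Of the 10 IDR regions, 5 were among the 843 strongest of both replicates, those at mir-235, mir-54, mir-52, mir-45 and mir-354. Replicate 1 alone had 2 (mir-244 and mir-8188) and replicate 2 alone 1 (mir-265), and 2 (mir-5549 and mir-82) were in neither. Of all 818 nuclear IDR peaks, 406 (49.6%) were among the strongest of both replicates, so 5 of 10 is no trait of microRNA regions. Replicate 1's strongest held 77.0% of those peaks and replicate 2's 64.8%, against 70% and 60% of the 10.

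**Figure D2:**
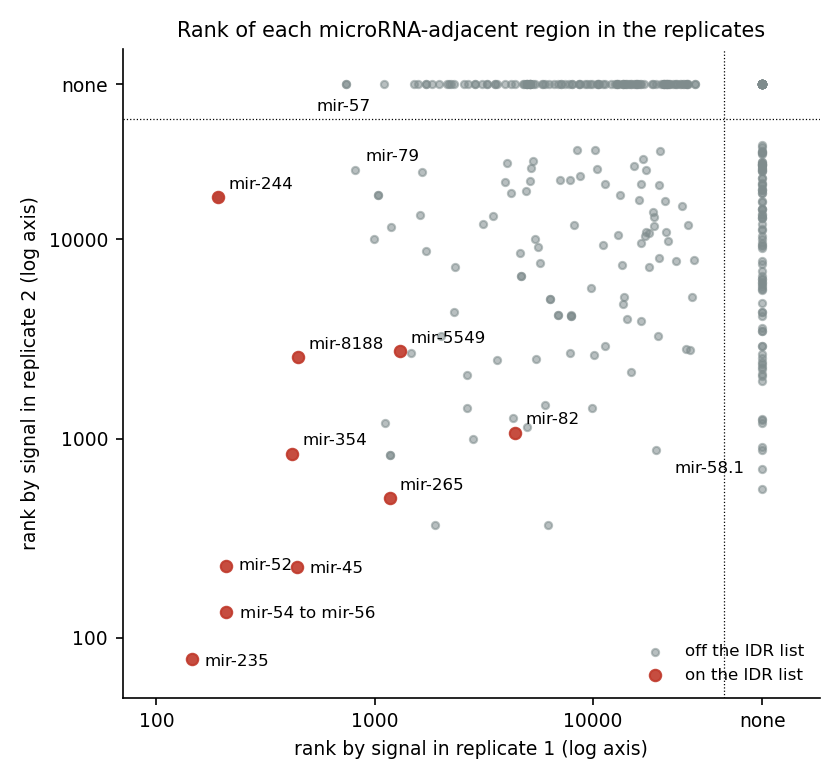
Rank by signal in replicate 1 (horizontal) and replicate 2 (vertical), both on log axes, for each of the 352 regions, with regions that had no overlapping candidate drawn beyond the dotted lines. The regions at mir-235, mir-54, mir-52 and mir-45 sit at the low-rank corner of both replicates, while mir-244 ranks 191 in one and 16345 in the other.

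Off the IDR list, other microRNA regions were strong in one replicate and not in the other. In replicate 1 these were a second region of mir-244, 359 bp upstream under the same candidate of rank 191, and regions of mir-57, a gene that patterns posterior cells in the embryo, and mir-79, which acts in the epidermis on proteoglycan synthesis. The region 122 bp upstream of mir-57 had signal 31.8 and rank 738 in replicate 1, no candidate in replicate 2 and pooled rank 866, the first below the IDR list among these regions. A summit 337 bp upstream of mir-57 overlapped the same replicate 1 candidate and had pooled rank 24487. The region 646 bp downstream of mir-79 had rank 812 in replicate 1, rank 22383 in replicate 2 and pooled rank 1509.

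Replicate 2 placed regions of the mir-42 cluster, mir-58.1, mir-51 and mir-2215 among its 843 strongest. The region 55 bp upstream of mir-58.1 had signal 22.9 and rank 705 there, with no candidate in replicate 1 and pooled rank 5575. A second mir-51 region, 122 bp upstream, overlapped the rank 368 candidate of replicate 2 and ranked 6217 in replicate 1. At mir-2215, 1588 bp upstream, the pooled signal was 44.8 (rank 889), with rank 1183 in replicate 1 and rank 829 in replicate 2, so both replicates held it close to the limit of their strongest 843. A weaker mir-2215 summit overlapped the same candidates at pooled rank 25601. Upstream of mir-1828 by 1831 bp, and 41 bp upstream of pash-1, a region had pooled signal 38.6 (rank 1209), rank 1188 in replicate 1 and rank 11597 in replicate 2. Taken alone, replicate 1's list gave 319 regions near microRNA genes with 9 among its 843 strongest (2.82%), and replicate 2's gave 342 with 10 (2.92%). Over all nuclear candidates these shares were 2.72% in each replicate.

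Relative to the nearest microRNA hairpin, the IDR summits lay upstream or inside. The summit near mir-54 lay 1607 bp downstream of mir-55b, a farther gene on the other strand. Of the 352 summits, 178 lay upstream of their nearest microRNA gene on its strand, 162 downstream and 12 inside. On the IDR list were 8 of the upstream summits (4.49%, 1.96 to 8.66), 2 of those inside (16.7%, 2.09 to 48.4) and 0 downstream, which allows a share of up to 2.25%. In replicate 1's own list the counts among its 843 strongest were 7 of 153 upstream, 1 of 13 inside and 1 of 153 downstream, and in replicate 2's they were 9 of 181, 1 of 9 and 0 of 152. The intervals of the upstream and downstream shares overlap, and the difference was not tested. Near tRNA genes 11 of 322 upstream summits (3.42%) and 15 of 353 downstream summits (4.25%) were on the IDR list, with 12 of 78 inside (15.4%), and near snoRNA and snRNA genes 25 of 337 upstream (7.42%), 8 of 278 downstream (2.88%) and 1 of 29 inside (3.45%).

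**Figure D3:**
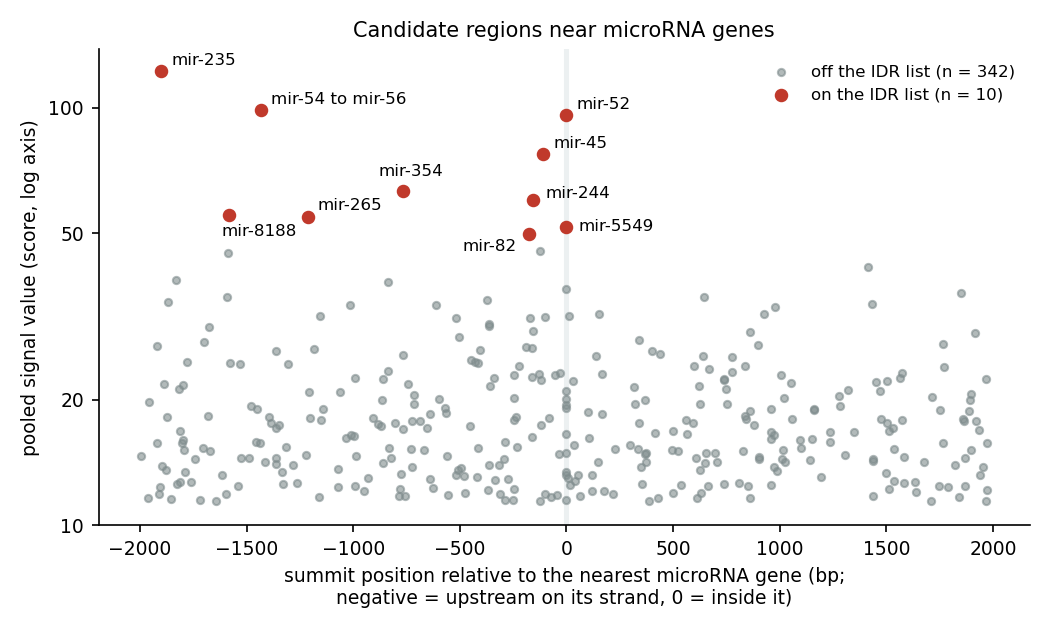
Pooled signal value (vertical log axis) against the position of each summit relative to its nearest microRNA gene (horizontal axis, bp, negative upstream and 0 inside the gene) for the 352 regions, with the 10 on the IDR list named. Named regions lie from 1901 bp upstream to the hairpin, and the downstream side has none.

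**Figure D4:**
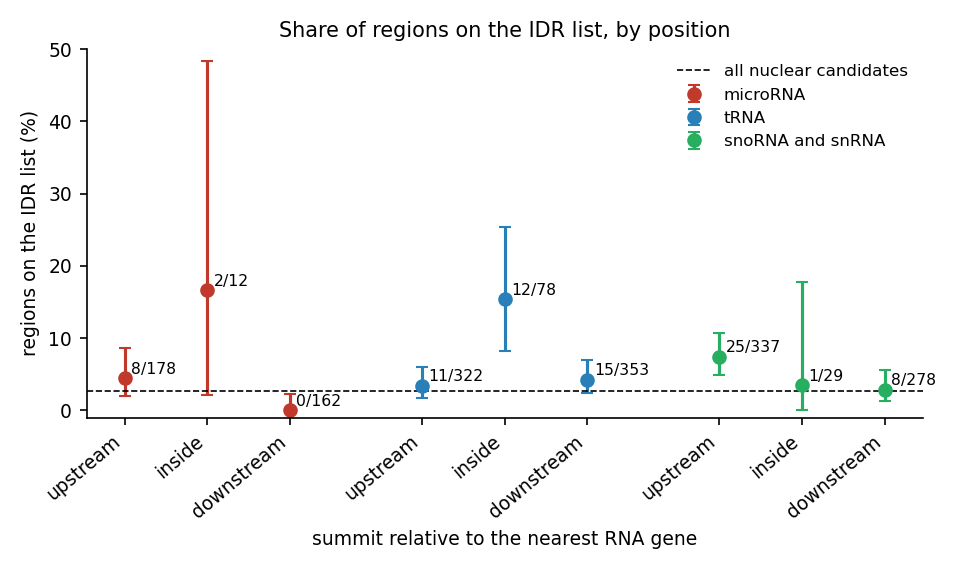
Percent of regions on the IDR list (points, with exact 95% binomial intervals) by the summit's position relative to the nearest microRNA, tRNA or snoRNA and snRNA gene. The dashed line is the 2.73% of all nuclear candidates, and the microRNA points are 4.49% upstream, 16.7% inside and 0% downstream.

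By distance, the IDR list held 5 of 105 regions (4.76%) within 500 bp, 1 of 96 (1.04%) beyond that up to 1000 bp and 4 of 151 (2.65%) beyond that up to 2000 bp. The median distance was 860.5 bp over all 352 regions and 470 bp over the 10 on the IDR list. The outermost member lay 1995 bp upstream of mir-790, with signal 14.6. Just beyond the limit, at 2013 bp from mir-237, the sister of lin-4, stood a region of signal 40.4 (rank 1089), stronger than the 12.8 of the best region within reach of that gene. Protein-coding promoter windows held 36.4% (31.3 to 41.6) of the regions, against 42.9% of all nuclear candidates, and 32.95% (28.1 to 38.1) lay outside promoters, exons and introns, against 19.2%. The rule chose regions by position, and 154 of the 259 microRNA genes lie outside protein-coding genes. These shares are therefore not independent of the rule and are no result about BLMP-1.

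The 2 words searched, on both strands and wholly within 50 bp of the summit, were AAGTGAAA, the core that BLMP-1 binds, and GAGAGA. The core was at 6 of the 352 regions, 1.70% (0.628 to 3.67), with a background of 2.23%. On the IDR list the mir-265 region alone had it, 1 of 10, against 15.5% of the 818 nuclear IDR peaks. It started 11 bp from that summit. Off the list it lay at the regions of mir-5547, mir-791, which acts in carbon dioxide sensing neurons, mir-5594, mir-228 and mir-59, with pooled ranks from 1738 to 29894.

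GAGAGA was at 37 regions, 10.5% (7.51 to 14.2), with a background of 7.67%. Overlapping copies in 1 repeat counted as 1 region. Among the 10 on the IDR list it was at 4, those of mir-45, mir-82, mir-244 and mir-5549, against 30.6% of nuclear IDR peaks. The median G+C content within 50 bp of the summit was 33.7% over the 352 regions and 46.5% over these 10, and 31.7% over all nuclear candidates and 43.6% over nuclear IDR peaks. The part of G+C content in the word counts was not tested.

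The other microRNA lists held no gene with an IDR summit within reach. Of the 259 genes, 206 had a candidate within reach and 53 had none, and the median signal of a gene's strongest region was 18.7. The mir-35 family, which embryos need to survive, had a candidate at 8 of 8 genes and an IDR summit at none. A region 449 bp upstream of mir-35 served the whole mir-35 to mir-41 cluster, with signal 24.9, pooled rank 4270, rank 15024 in replicate 1 and rank 2160 in replicate 2. Among deeply conserved genes the strongest region was that of mir-57, described above, with signal 45.3 (pooled rank 866). Next came mir-1, the muscle microRNA, with 31.4 (pooled rank 2059, replicate ranks 17589 and 10853). The values were 17.7 for mir-34 and 15.2 for mir-71, which affects lifespan. Of the 4 genes listed as neuronal, mir-124 and lsy-6 had no candidate within reach. The strongest region of mir-791 had signal 32.0 (rank 1931, replicate ranks 2020 and 3288) and that of mir-790 had 26.2 (rank 3586, replicate ranks 7920 and 4142).

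The strongest regions of further lists had signals of 28.2 at mir-2, 24.1 at mir-62, 31.6 at mir-238, 18.2 at mir-87, 18.2 at mir-252, 17.6 at mir-46, 17.2 at mir-73 and mir-74, 16.8 at mir-83 and 13.6 at the mir-64 cluster. All of these lay below the IDR list, whose lowest signal was 46.1. The mir-238 region is the one named above at mir-80, and lay 1861 bp downstream of mir-238. By chromosome, IDR summits were within reach of 3 of 33 microRNA genes on I, 2 of 48 on II, 1 of 27 on III, 2 of 50 on IV, 0 of 28 on V and 5 of 73 on X. The 5 genes on X rest on 2 regions, since mir-54, mir-55, mir-55b and mir-56 share the same one. Genes inside a protein-coding gene had one at 7 of 105 (6.67%) and the others at 6 of 154 (3.90%), with overlapping intervals of 2.72 to 13.3 and 1.44 to 8.29. The 7 include those genes of the shared region, and the intervals treat genes as independent.

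**Figure D5:**
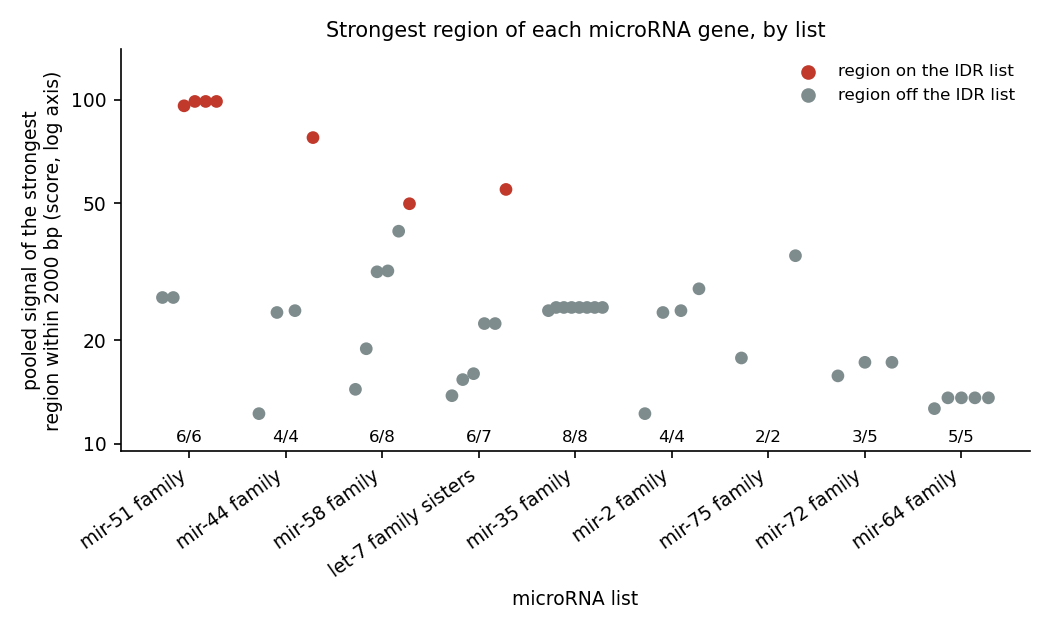
Pooled signal (vertical log axis) of the strongest region within 2000 bp of each microRNA gene, for 9 of the microRNA lists, with the number of genes that have a region over the number annotated under each column. Genes of one cluster share a region and so stand at one height, as in the mir-35 family at 24.9, and the mir-51 family holds 4 genes above 90.

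Genes for the proteins that make and use microRNAs were a separate list of 15, of which 11 had a candidate in the promoter window and 5 an IDR summit. The background was 3.3% of all nuclear protein-coding genes and 5.99% of the 11013 with a candidate there. The list was chosen with the peaks at nhl-2 and ain-1 already known. IDR summits stood at nhl-2, an Argonaute cofactor (139, pooled rank 91, replicate ranks 124 and 54), at xrn-2, a nuclease that degrades mature microRNAs (59.6, rank 507, ranks 2022 and 182), and at vig-1, a component of the silencing complex (59.6, rank 508, ranks 849 and 195). They also stood at ain-2 (57.8, rank 540, ranks 501 and 1061) and ain-1 (49.95, rank 725, ranks 1644 and 287), which encode partners of Argonaute. Without an IDR summit, the strongest candidate was at rde-4 (45.1, rank 878, ranks 6198 and 1535). Next were the Argonaute gene alg-1 (43.6, replicate ranks 5816 and 7905) and pash-1, the partner of Drosha (38.6, replicate ranks 1188 and 11597). No candidate stood in the window of drsh-1, dcr-1, alg-2 or xrn-1.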

How the data were processed

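The authors' deposited files are peak lists in narrowPeak form on build ce11: the optimal IDR list, the pooled candidates and a candidate list per replicate. Lists on ce10 were not used here. The aligner, peak caller and thresholds are not given in the sources used here. Each region's signal value in the deposited lists is a score of unstated scale, so its size was compared only within a list, and replicates by rank (ties share the best rank). The -log10 q value of the deposited lists was used in 1 alternative. Library depth is unknown.

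Summits were placed on WBcel235 with the Ensembl release 115 annotation, and 258 of 259 microRNA genes matched a RefSeq gene by position. A region was on the IDR list when start, end and summit matched, and replicate candidates were matched by an overlap of at least 1 bp, taking the strongest. No test was run: shares have exact (Clopper-Pearson) 95% intervals. Distance, overlap and word searches were tested on simulated data. The regions, lists and alternatives were chosen with earlier results of these data known. Named genes are those at the 15 strongest regions or with an IDR summit, each list's strongest member, the largest rank differences between replicates, protein genes of microRNA processing with an IDR summit, and the regions nearest the distance limit. Other genes, such as mir-228, and protein genes without an IDR summit were named after their values were seen. Python 3.11.15, scipy 1.17.1 and pandas 2.3.3 were used.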

Additional observations from a re-analysis of the deposited data

How the results depend on the processing

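The share of regions on the IDR list was 5.43% with 1 region per locus, which keeps all 10 IDR regions of 184 by construction and has no background thinned alike. It was 1.14% against the 422 strongest peaks of that list, where the background was 1.32%. The share of microRNA genes with an IDR summit was 2.32% within 1000 bp and 1.93% within 500 bp, where fewer regions can reach a gene. GAGAGA was at 15.2% of regions within 500 bp of the gene (7.67% over all nuclear candidates), and at 17.9% within 100 bp of the summit (background 13.7%). The Spearman rank correlation between the replicates was 0.411 over the 59 regions with summits within 100 bp. With a single replicate's list no IDR list exists, so its own 843 strongest regions took that place: they held 2.82% to 2.92% of the regions (background 2.72% in each) and lay near 4.63% to 6.18% of microRNA genes. In those lists AAGTGAAA was at 1.25% to 1.75% of regions (background 1.91% to 2.13%). GAGAGA was at 11.4% to 12.5% there (background 7.06% to 8.72%). Of the strong regions in those lists, 77.8% to 90% lay upstream (80% of the IDR regions), a comparison added after seeing the data. In all 41 values moved by less than these limits: the 95% interval of the main share, 1.5 times for the median signal and 0.1 for the rank correlation. No paired analysis was possible because the samples form 1 group. With depth unknown, a gene without a candidate cannot be told apart from one with a weak region.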

Other observations

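The gene mir-228, which is expressed in glia, had 6 candidate regions within 2000 bp, a number no microRNA gene exceeded, and was picked after the values were seen. The strongest lay 1434 bp downstream of the hairpin, with pooled signal 33.9 (rank 1678), rank 2830 in replicate 1 and rank 994 in replicate 2. GAGAGA was at 3 of the 6 summits, with 4, 1 and 8 copies, some overlapping, and AAGTGAAA was at another. The genes mir-79, mir-51 and mir-265 also had 6 regions each, and of the regions at these genes and mir-228 only the mir-265 one described above was on the IDR list.

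The 5p RNA annotated for mir-8188, which also has an annotated 3p RNA with another seed, has the seed of mir-72, mir-73 and mir-74, as the sequences below show with the seed in capitals, and its region was on the IDR list at pooled rank 579. The strongest regions of mir-73 and mir-74 (a shared one, rank 12816) and of mir-72 (rank 16079) were not. Of the other genes among the 6 with this seed, mir-8187 had its strongest region at pooled rank 9114 (rank 1581 in replicate 1, no candidate in replicate 2), off the IDR list, and mir-266 had no candidate.
mir-8188: aGGCAAGAuguaggcacgu
mir-73: uGGCAAGAuguaggcaguucagu
mir-74: uGGCAAGAaauggcagucuaca
mir-72: aGGCAAGAuguuggcauagcuga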
